A study of Mus musculus with 6 samples.

Results

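The genes described here encode glycoproteins and proteoglycans of the extracellular matrix other than collagens: fibronectin and the matricellular proteins, the thrombospondins and tenascins, the microfibrils and elastic fibres, the small leucine-rich proteoglycans, and the large hyaluronan-binding proteoglycans. They are the 40 genes of a symbol list that was chosen with earlier results of these data known. All 40 were found among the 27179 genes of each deposited comparison table. The cells were C2C12, a line of mouse myoblasts that fuse into multinucleated myotubes when serum is withdrawn, and their RNA was sequenced after 48 h in a medium with horse serum and insulin. The 6 libraries form 3 groups of 2, each from cells stably transfected with an shRNA construct, so that every group carries a construct: a non-targeting scrambled shRNA, an shRNA against the BAF250A subunit (the product of Arid1a, part of the BAF type of SWI/SNF chromatin remodeller) or an shRNA against the BRD9 subunit (part of the ncBAF type). The sources used here do not say whether a line is a single clone or a pool, nor how the duplicate cultures of a group were separated, so that p-values measure only the spread between 2 libraries per group, which may be technical. The question named by the series title is whether muscle differentiation needs BAF and ncBAF differently, and it was addressed by each knockdown against the scrambled shRNA and by the difference between the knockdowns.

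Matrix glycoproteins are secreted and assembled outside the cell. Fibronectin forms the first fibrils, to which integrins, tenascins and thrombospondins bind; fibrillins form microfibrils that carry latent TGF-beta binding proteins and, with fibulins, guide the deposition of elastin. The small leucine-rich proteoglycans bind collagen fibrils and set their spacing, and versican and aggrecan hold hyaluronan and water in the matrix. In skeletal muscle this matrix is made mostly by fibroblasts and fibro-adipogenic cells of the connective tissue, and myoblasts in culture also make part of it.

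The small leucine-rich proteoglycan genes lie in groups on their chromosomes, and the group on chromosome 13 of mm10 carries one of the contrasts below. There Aspn (asporin, 49544443 to 49567565) and Ogn (osteoglycin, 49608015 to 49624501) lie 40.4 kb apart, with Omd (osteomodulin) between them. The 250 bases upstream of their RefSeq start sites (build GRCm38.p6, which is mm10) are shown because of these neighbours Aspn was called higher with BRD9 and Ogn was not, and those of Postn because it was the 1 member that passed the test of the difference between the knockdowns. Capitals mark TATAAA (the TATA box letters), GGAATG (a TEAD motif) and CAGCTG (an E-box) read on either strand, and the TGAGTCA of AP-1 was searched too. Aspn is read from chr13:49544193-49544442, Ogn from chr13:49607765-49608014 and Postn, at the downstream of its 2 RefSeq starts, from chr3:54360857-54361106, all on the plus strand.
Aspn: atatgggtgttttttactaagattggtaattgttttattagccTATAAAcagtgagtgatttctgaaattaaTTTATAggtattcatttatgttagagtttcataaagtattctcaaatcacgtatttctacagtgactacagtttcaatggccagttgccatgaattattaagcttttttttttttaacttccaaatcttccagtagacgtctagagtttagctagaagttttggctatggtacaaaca
Ogn: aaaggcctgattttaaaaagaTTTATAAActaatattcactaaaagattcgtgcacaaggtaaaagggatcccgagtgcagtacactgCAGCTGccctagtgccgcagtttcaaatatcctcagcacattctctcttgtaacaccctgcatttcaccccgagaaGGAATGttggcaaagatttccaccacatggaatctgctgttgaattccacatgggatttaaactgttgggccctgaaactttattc
Postn: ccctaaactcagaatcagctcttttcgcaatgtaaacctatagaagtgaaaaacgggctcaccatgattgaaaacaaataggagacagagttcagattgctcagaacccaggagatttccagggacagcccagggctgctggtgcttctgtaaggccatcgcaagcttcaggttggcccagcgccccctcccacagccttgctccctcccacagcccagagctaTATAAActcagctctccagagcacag
In Postn the TATAAA begins 26 bases before the downstream start site, and in Ogn and Aspn it begins 227 and 207 bases before theirs. The 250 bases before the upstream start of Postn hold none of the motifs searched. TATAAA was found upstream of 6 of the 27 members with a promoter in the RefSeq table (22.2%) and of 14.3% of all 27025 genes there, at 250 bases each. CAGCTG was found in 7 of the 27 members against 14.7% of all genes, GGAATG in 4 against 14.4%, and TGAGTCA in 2 against 5.16%, with the reverse complement included for each; Ogn holds TATAAA and TTTATA overlapping, and a gene with several starts counts once. These are matches of letters only.

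The values are the authors' own. Their 2 tables give for each gene a mean normalized count over the 4 libraries of a comparison, a log2 fold change of knockdown over scrambled shRNA with its standard error (SE), and an adjusted p of the Wald test, for which 0.05 was the threshold. "Rose" and "fell" are used only for genes past it. Where the mean was at least 100 normalized counts, the median SE was 0.48 for BAF250A and 0.54 for BRD9. Over all genes tested, the smallest change called was 1.02 in size with BAF250A and 1.29 with BRD9. No smaller change was called, and a missing call is no sign that a gene was unchanged. For Arid1a the authors' deposited table gave -1.95 (SE 0.48, adjusted p 0.000381) in BAF250A knockdown, and for Brd9 it gave -1.60 (SE 0.54, adjusted p 0.0252) in BRD9 knockdown. Means per group are those implied by the mean normalized count and the fold change, and are called implied means. Reads per library could be recovered for 14 members of low abundance, because each library adds whole reads, scaled by its own constant, to a gene's mean; the libraries of a group are numbered 1 and 2 by falling size factor, and which of them is labelled A or B is unknown. Size factors were 1.58 and 1.09 for the scrambled shRNA and 0.801 and 0.773 for BAF250A in its table, and 0.841 and 0.782 for BRD9 in its own, the control libraries having the larger factors in both tables. The same 2 control libraries serve both comparisons.

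In BAF250A knockdown, 18 of the 39 tested members rose and 2 fell, where 28.7% of all 16450 genes tested were called, 11.2% higher and 17.5% lower. In BRD9 knockdown, 10 of 40 rose and 1 fell, where 14.4% of 17198 genes were called, 5.11% higher and 9.33% lower. The median log2 fold change of the tested members was 1.12 with BAF250A and 0.72 with BRD9, where the medians of all tested genes were -0.18 and -0.15. Because the members were chosen with earlier results known, these counts and medians describe the list and are no independent support. The counts by role and by list below were not tested against the shares of all genes. Fbn2 was the member without an adjusted p in the BAF250A table. The plot of fold changes by role shows that the members called higher lie mostly among the microfibril genes and the small leucine-rich proteoglycans, while the abundant Fn1 and Tnc lie below 0 without a call.

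**Figure D1:**
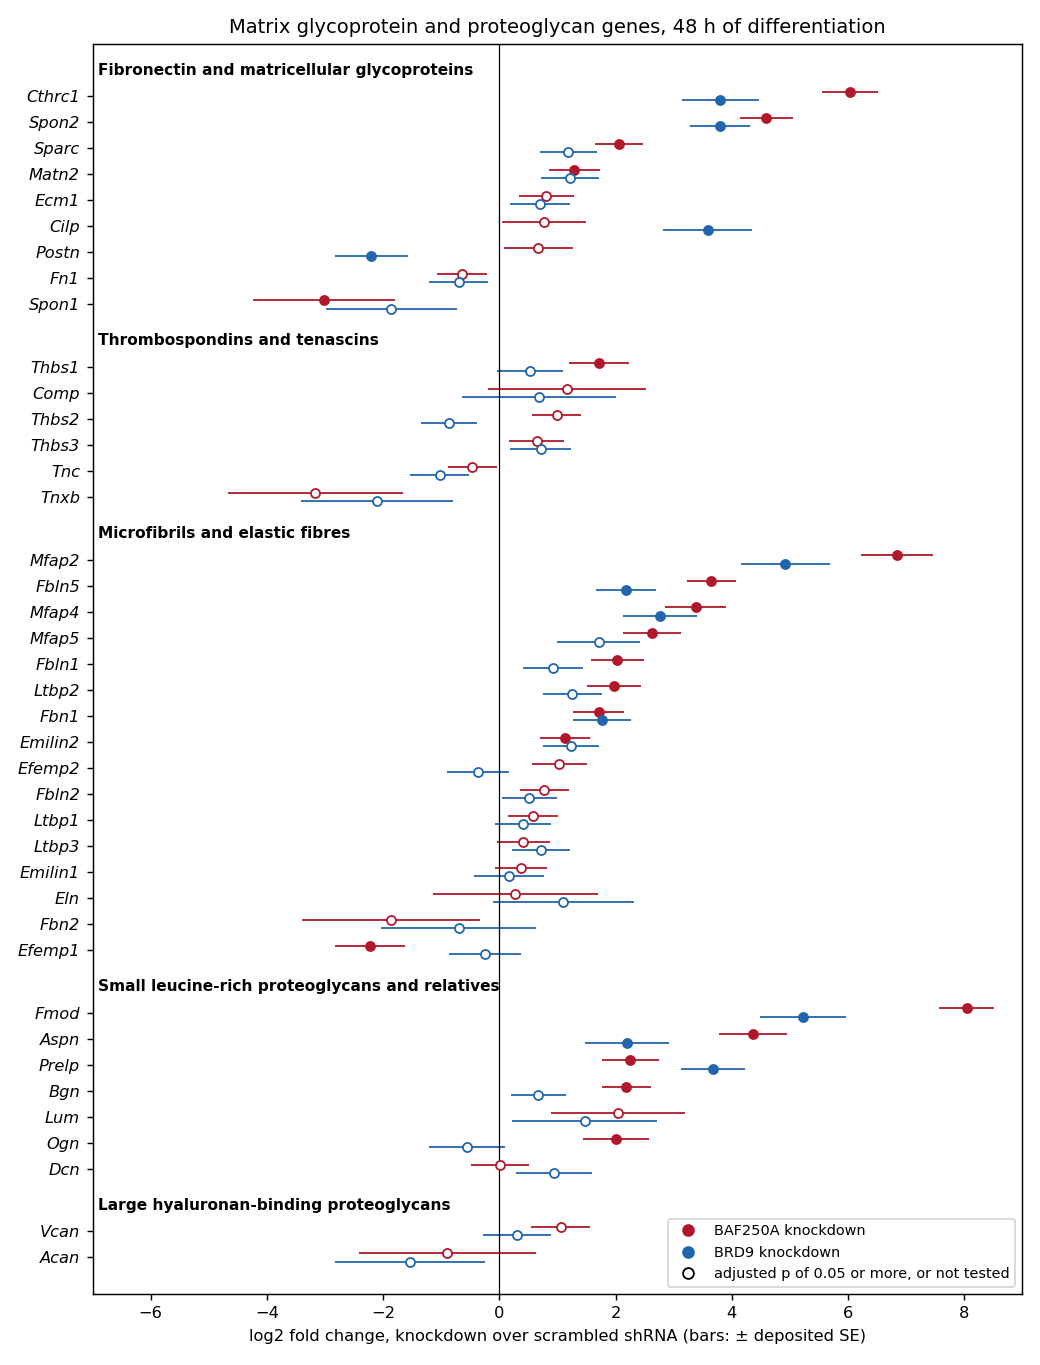
Log2 fold change of knockdown over scrambled shRNA (x axis, with the deposited SE as bars) for the 40 members, grouped by role; red is BAF250A, blue is BRD9, and open circles did not pass the threshold or were not tested. Fmod has the highest value in both colours (8.04 and 5.22), and Postn is the member that is called lower with BRD9.

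Measured per length, as implied normalized counts per kb of the longest annotated transcript in scrambled shRNA cells, the members spanned from 0.24 for Fbn2 to 65342 for Fn1. The control values per kb are on the scale of the BAF250A table, and those of each knockdown are on the scale of its own table. After Fn1 came Sparc at 20719, Bgn at 19248 and Tnc at 9052 per kb. In BAF250A knockdown Bgn (87554 per kb) and Sparc (86278) stood above Fn1 (41859), and in BRD9 knockdown Sparc (49242) stood above Fn1 (42082) and Bgn (31466). At the other end, Fbn2, Acan, Tnxb, Eln, Comp, Lum and Spon1 were at most 2.85 per kb in the control. Elastin itself was thus near the floor of the measurement, with 2 and 5 reads in the control libraries, 4 and 2 with BAF250A and 4 and 10 with BRD9. Because RNA was taken from whole cultures, fewer cells of a type and less RNA per cell cannot be told apart.

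Fibronectin and the matricellular glycoproteins held calls in both directions. Of these 9 genes, 4 rose and 1 fell in BAF250A knockdown (median 0.81), and 3 rose and 1 fell in BRD9 knockdown (median 1.19). Fn1, the fibronectin gene on chromosome 1 (71585473 to 71653280), had implied means of 543318 normalized counts in the control and 348060 with BAF250A. The authors' deposited tables put it at -0.64 (SE 0.44) with BAF250A and -0.70 (SE 0.50) with BRD9, with adjusted Wald p of 0.28 and 0.422. Its difference between the knockdowns was 0.06, with a 95% interval of -1.25 to 1.37.

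Cthrc1, a secreted protein with a short collagen-like stretch (chromosome 15, 39076932 to 39087121), was nearly silent in control cells. Its normalized counts were 24.8 and 17.4 in the scrambled shRNA libraries and 1451 and 1666 in the BAF250A libraries. On the scale of the BRD9 table the controls stood at 26.4 and 17.8 and the BRD9 libraries at 164 and 583. Every knockdown library was therefore above both controls, and the BRD9 libraries were 3.55-fold apart. The authors' deposited tables gave rises of 6.04 (SE 0.48, adjusted Wald p 1.4e-33) with BAF250A and 3.80 (SE 0.66, adjusted Wald p 2.67e-07) with BRD9.

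Spon2, a spondin that binds integrins (chromosome 5, 33213518 to 33218254), rose in each comparison. Its implied means were 493 in the control and 11910 with BAF250A, and 527 and 7292 in the BRD9 table. According to the authors' deposited tables the rises were 4.59 (SE 0.46, adjusted Wald p 6.8e-22) and 3.79 (SE 0.52, adjusted Wald p 1.15e-11). Its relative Spon1 was rare, with 38 and 14 reads in the controls, 0 and 2 with BAF250A and 6 and 0 with BRD9. The BAF250A call of Spon1 was close to the threshold (-3.02, SE 1.22, adjusted Wald p 0.0479 per the authors' deposited table), and that of BRD9 was not past it (-1.86, SE 1.13, adjusted p 0.318).

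Sparc, a collagen-binding glycoprotein (chromosome 11, 55394159 to 55420080), rose by 2.06 (SE 0.42, adjusted Wald p 8.73e-06) with BAF250A per the authors' deposited table, from an implied 47654 to 198439 normalized counts. With BRD9 the authors' deposited table put it at 1.19 (SE 0.49, adjusted p 0.0864). Matn2, the matrix adaptor matrilin-2, stood at nearly the same value in each, 1.29 (SE 0.44) and 1.21 (SE 0.50) per the authors' deposited tables, and only the first passed (adjusted Wald p 0.0166 and 0.0894). The difference of Matn2 between the knockdowns was 0.08 (95% interval -1.24 to 1.39), so a call in 1 table and not in the other is no sign of a difference there. Ecm1 stood at 0.81 and 0.69 per the authors' deposited tables and passed neither test.

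Cilp, the cartilage intermediate layer protein (chromosome 9, 65265180 to 65280614), was called with BRD9 and not with BAF250A, and its BRD9 value rested mostly on 1 library. Its normalized counts were 31.1 and 21.5 in the controls and 76.1 and 734 in the BRD9 libraries, which is 2.89 and 27.9 times the control mean. In the BAF250A table the controls were 29.2 and 21.0 and the knockdown libraries 39.9 and 49.2, also above both controls. The authors' deposited tables gave 3.58 (SE 0.76, adjusted Wald p 4.78e-05) with BRD9 and 0.77 (SE 0.72, adjusted Wald p 0.46) with BAF250A. The difference, -2.81 (95% interval -4.87 to -0.75), had an adjusted p of 0.183 (difference z test, Benjamini-Hochberg over 16311 genes) and was not called.

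Postn, periostin, a matricellular protein that binds integrins and fibronectin (chromosome 3, 54359267 to 54391041), differed between the knockdowns. With BRD9 it fell by 2.20 (SE 0.63, adjusted Wald p 0.00539) per the authors' deposited table, from an implied 19556 to 4248 normalized counts. With BAF250A it stood at 0.67 (SE 0.59, adjusted Wald p 0.426) per the authors' deposited table, from 18995 to 30240. The difference of 2.87 (95% interval 1.18 to 4.57) passed the difference z test with an adjusted p of 0.0382. It was the 1 member of 39 to do so, where 2.54% of all 16311 genes tested in both tables were called, 0.552% higher with BAF250A and 1.99% lower.

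**Figure D2:**
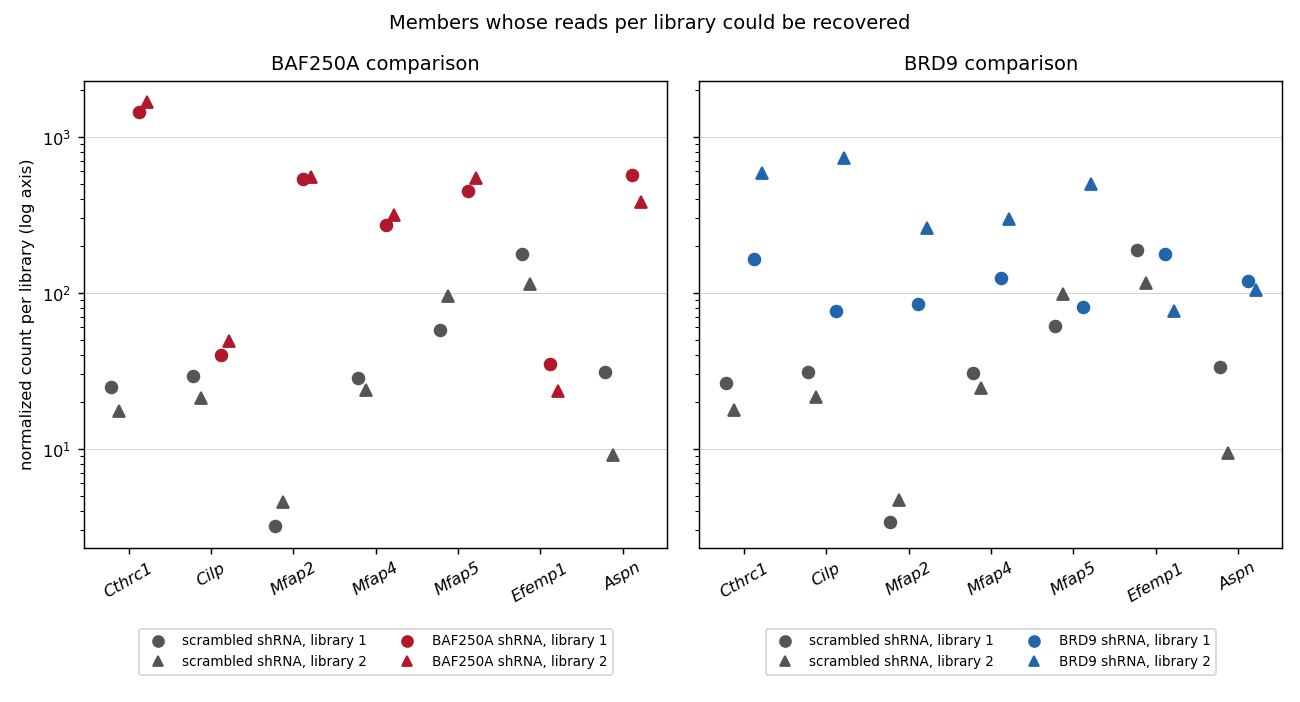
Normalized counts per library (y axis, log scale) for 7 members whose whole reads were recovered, in the BAF250A comparison (left) and the BRD9 comparison (right); grey marks are the scrambled shRNA, coloured marks the knockdown, circles library 1 and triangles library 2. The BAF250A libraries lie close together, while BRD9 library 2 is the higher one for Cthrc1, Cilp, Mfap2, Mfap4 and Mfap5.

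The BRD9 libraries lay further apart than the BAF250A libraries for these members. Of the 7 recovered members with a group mean of at least 20 normalized counts, 6 differed by more than 2-fold between the BRD9 libraries and 0 between the BAF250A libraries, and BRD9 library 2 was the higher in 5 of the 7. Over 1789 genes of similar abundance, the median log2 ratio of BRD9 library 2 to library 1 was -0.26, the other direction. Among these genes, 30.1% differed by more than 2-fold between the BRD9 libraries, against 9.81% of 1620 genes for BAF250A and 37.4% of 2410 genes for the scrambled shRNA. The part of this spread in the BRD9 values was not tested.

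Thrombospondins and tenascins, large multimeric glycoproteins that modulate adhesion, had few calls. Of the 6 genes, 1 rose and 0 fell with BAF250A (median 0.82), and 0 were called with BRD9 by the deposited Wald test (median -0.17), where 1 had an unadjusted p below 0.05 (24.1% of all genes tested). Thbs1, an activator of latent TGF-beta (chromosome 2, 118111876 to 118127133), rose by 1.71 (SE 0.52, adjusted Wald p 0.00534) with BAF250A per the authors' deposited table, from an implied 13519 to 44230 normalized counts. With BRD9 the authors' deposited table put Thbs1 at 0.53 (SE 0.56, adjusted p 0.628). Thbs2 pointed opposite ways, 0.99 (SE 0.43) with BAF250A and -0.87 (SE 0.49) with BRD9 per the authors' deposited tables, with neither called and a difference of 1.85 (95% interval 0.58 to 3.12) at an adjusted p of 0.123.

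Tnc, tenascin-C, an abundant glycoprotein of remodelling matrix (chromosome 4, 63959785 to 64047015), had implied means of 64326 in the control and 46632 with BAF250A. In the BRD9 table they were 67019 in the control and 32931 in the knockdown. The authors' deposited tables gave -0.46 (SE 0.43) and -1.03 (SE 0.51), with adjusted Wald p of 0.451 and 0.189. Thbs3 stood at 0.65 and 0.71 per the authors' deposited tables, also uncalled. Tnxb and Comp were measured by few reads. Tnxb had 2 and 17 reads in the controls, 0 and 0 with BAF250A and 1 and 0 with BRD9, so most of its reads came from 1 control library. Comp had 5 and 1, 6 and 4, and 0 and 8 reads in the same order, and the BRD9 libraries lay on both sides of the controls.

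Microfibril genes held more rises than any other role, being also the most numerous. Of 15 tested members of microfibrils and elastic fibres 8 rose and 1 fell with BAF250A (median 1.12), and of 16 tested 4 rose and 0 fell with BRD9 (median 1.01). Fbn1, which encodes fibrillin-1, the backbone of the microfibril (chromosome 2, 125300594 to 125506485), rose by 1.71 (SE 0.44, adjusted Wald p 0.000701) and 1.77 (SE 0.49, adjusted Wald p 0.00368) per the authors' deposited tables. Its implied means were 8243 and 26941 in the first and 8783 and 29856 in the second, and the difference was -0.06 (95% interval -1.34 to 1.23). Of its exon bases, 20.3% are also annotated to another gene, Gm9913, with strand not considered. Whether reads there can be told apart was not tested. Fbn2, the other fibrillin gene measured, had 2 and 6 control reads, 0 and 0 with BAF250A and 0 and 2 with BRD9.

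Microfibril-associated glycoproteins are small proteins that attach to fibrillin, and Mfap2 among them had the highest fold change of this role. Mfap2 (chromosome 4, 141010424 to 141015976) went from 3.17 and 4.57 normalized counts in the controls to 533 and 556 in the BAF250A libraries. In the BRD9 table its values were 3.38 and 4.68 in the controls and 84.4 and 260 in the knockdown. The control libraries held 5 reads each, so the size of the fold is uncertain although the knockdown libraries are far above them. The authors' deposited tables gave 6.84 (SE 0.62, adjusted Wald p 2.66e-26) and 4.92 (SE 0.76, adjusted Wald p 4.01e-09).

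Mfap4 (chromosome 11, 61485431 to 61488708) had 28.6 and 23.8 normalized counts in the controls and 273 and 313 with BAF250A. In the BRD9 table the controls were 30.5 and 24.3 and the knockdown libraries 124 and 298. It rose by 3.38 (SE 0.53, adjusted Wald p 2.96e-09) and 2.76 (SE 0.64, adjusted Wald p 0.000259) per the authors' deposited tables. Mfap5 (chromosome 6, 122513584 to 122529290) separated in 1 comparison alone. Its controls were 57.8 and 96.0 and its BAF250A libraries 449 and 547, whereas in the BRD9 table the controls were 61.6 and 98.3 and the knockdown libraries 80.8 and 496. BRD9 library 1 thus lay between the controls. Mfap5 rose by 2.63 (SE 0.50, adjusted Wald p 1.87e-06) with BAF250A and stood at 1.71 (SE 0.71, adjusted Wald p 0.0958) with BRD9 per the authors' deposited tables.

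Fibulins bind elastin, fibrillin and basement membrane proteins, and their genes were called in both directions. Fbln5, which is needed for elastic fibre assembly (chromosome 12, 101746565 to 101819119), rose by 3.65 (SE 0.43, adjusted Wald p 5.59e-16) with BAF250A and 2.18 (SE 0.51, adjusted Wald p 0.000308) with BRD9 per the authors' deposited tables. Its implied means were 329 and 4120 in the first table and 345 and 1562 in the second. Fbln1 rose with BAF250A by 2.03 (SE 0.46, adjusted Wald p 8.03e-05) and stood at 0.92 (SE 0.51, adjusted Wald p 0.266) with BRD9 per the authors' deposited tables. Fbln2 stood at 0.78 and 0.51, uncalled in either of the authors' deposited tables, from an implied control mean of 10198.

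Efemp1, also called fibulin-3 (chromosome 11, 28853154 to 28926743), went the other way. Its normalized counts were 177 and 113 in the controls and 34.9 and 23.3 with BAF250A. In the BRD9 table the controls were 189 and 116 and the knockdown libraries 177 and 76.7, which overlap. It fell by 2.22 (SE 0.61, adjusted Wald p 0.0017) with BAF250A and stood at -0.25 (SE 0.62, adjusted Wald p 0.862) with BRD9 per the authors' deposited tables. Efemp2, fibulin-4, a protein that brings lysyl oxidase to elastin, had 1.03 (SE 0.47) and -0.37 (SE 0.54) per the authors' deposited tables and was not called.

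The latent TGF-beta binding proteins tether the growth factor to microfibrils. Ltbp2, the form that does not bind TGF-beta (chromosome 12, 84783212 to 84876558), rose by 1.97 (SE 0.46, adjusted Wald p 0.000188) with BAF250A and stood at 1.26 (SE 0.51, adjusted Wald p 0.0833) with BRD9 per the authors' deposited tables, with 11.3% of its exon bases also annotated to D030025P21Rik. Ltbp1 stood at 0.58 and 0.41 and Ltbp3 at 0.41 and 0.72 per the authors' deposited tables, and neither was called. Emilin2, an elastin-microfibril interface protein, rose by 1.12 (SE 0.43, adjusted Wald p 0.0346) with BAF250A and stood at 1.23 (SE 0.48, adjusted Wald p 0.0676) with BRD9 per the authors' deposited tables, while Emilin1 stood at 0.38 and 0.16. For Emilin2 the difference was -0.10 (95% interval -1.37 to 1.16).

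**Figure D3:**
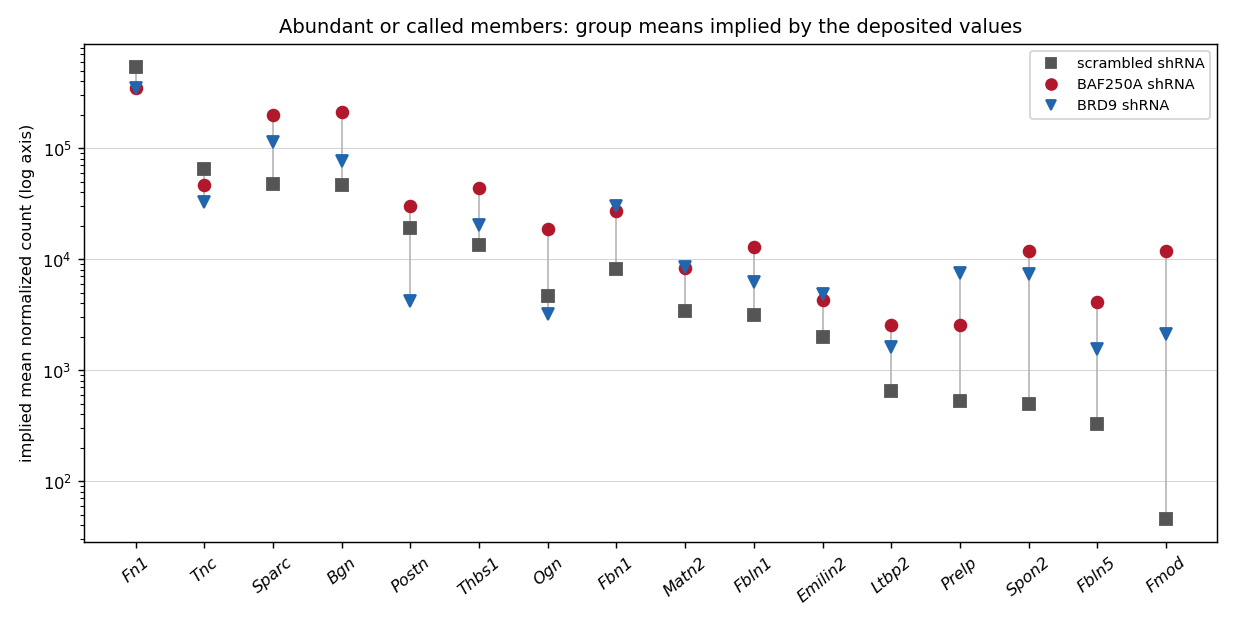
Group means of normalized counts implied by the deposited mean and fold change (y axis, log scale) for 16 abundant or called members. Grey squares are the scrambled shRNA in the BAF250A table, red circles BAF250A and blue triangles BRD9, the last on the scale of the BRD9 table. Fmod spans the widest range, from 45.2 in the control to 11902 with BAF250A, and Postn and Ogn have the BRD9 mark under the control while the BAF250A mark is above it.

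The small leucine-rich proteoglycans had the largest share of rises among the roles. Of the 7 genes, 5 rose and 0 fell with BAF250A (median 2.19), and 3 rose and 0 fell with BRD9 (median 1.47). Fmod, which encodes fibromodulin, a collagen-binding protein of tendon and other dense connective tissue (chromosome 1, 134037254 to 134048280), had the highest fold change of all 40 members in each table. Its implied means were 45.2 and 11902 in the BAF250A table and 57.3 and 2139 in the BRD9 table. The rises were 8.04 (SE 0.47, adjusted Wald p 4.65e-63) and 5.22 (SE 0.74, adjusted Wald p 7.5e-11) per the authors' deposited tables. The implied control mean differed 1.27-fold between the tables although the control libraries are the same. The difference between the knockdowns was 2.82 (95% interval 1.10 to 4.53) with an adjusted p of 0.051 by the difference z test, just outside the threshold.

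Prelp lies 107 kb from Fmod on chromosome 1 (133910304 to 133930102) and encodes a leucine-rich protein that anchors basement membranes to connective tissue. It rose by 2.26 (SE 0.48, adjusted Wald p 3.29e-05) with BAF250A and 3.67 (SE 0.55, adjusted Wald p 1.01e-09) with BRD9 per the authors' deposited tables. Its implied means were 532 and 2541 in the first table and 596 and 7582 in the second, and the difference of -1.41 was not called (95% interval -2.85 to 0.02, adjusted p 0.624). Of its exon bases, 9.68% are also annotated to Gm15851. Optc, 0.615 kb from Prelp and named for its position, rose by 1.36 (SE 0.54) with BAF250A and stood at 0.57 (SE 0.68) with BRD9 per the authors' deposited tables (adjusted Wald p 0.0408 and 0.675).

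On chromosome 13, the neighbours shown above were both called higher with BAF250A. Aspn, a TGF-beta and collagen binding protein, had 31.1 and 9.14 normalized counts in the controls and 572 and 383 with BAF250A. In the BRD9 table the controls were 33.2 and 9.36 and the knockdown libraries 119 and 105, so all knockdown libraries stood above both controls, which were themselves 3.40-fold apart. Aspn rose by 4.37 (SE 0.59, adjusted Wald p 4.44e-12) and 2.19 (SE 0.72, adjusted Wald p 0.0192) per the authors' deposited tables. Ogn rose by 2.00 (SE 0.56, adjusted Wald p 0.00245) with BAF250A, from an implied 4638 to 18577, and stood at -0.55 (SE 0.66, adjusted Wald p 0.674) with BRD9, from 4660 to 3178, per the authors' deposited tables. The difference was 2.55 for Ogn (95% interval 0.86 to 4.25, adjusted p 0.0992) and 2.17 for Aspn (95% interval 0.35 to 3.99, adjusted p 0.344), and neither was called.

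Omd and Ecm2, the other genes of that chromosome 13 group in the lists, were looked at for their position. Omd had 78 and 17 reads in the controls, 191 and 179 with BAF250A and 0 and 12 with BRD9. It stood at 2.72 (SE 0.61, adjusted Wald p 7.33e-05) and -1.76 (SE 1.05, adjusted Wald p 0.308) per the authors' deposited tables, and the difference of 4.48 was called (adjusted p 0.0125 by the difference z test). Ecm2 had 125 and 31, 252 and 313, and 90 and 126 reads in the same order. It rose by 2.63 (SE 0.57, adjusted Wald p 4.26e-05) with BAF250A and stood at 1.15 (SE 0.67, adjusted Wald p 0.294) with BRD9 per the authors' deposited tables. Ecm2, Aspn, Omd and Ogn were thus all called higher with BAF250A. With BRD9 Aspn passed the test and the other genes did not, but the genes were not tested against each other, and of the 4 the difference between the knockdowns was called for Omd.

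Bgn, biglycan, the most abundant member of this role (chromosome X, 73483601 to 73495936), rose by 2.19 (SE 0.42, adjusted Wald p 2.66e-06) with BAF250A per the authors' deposited table, from an implied 46561 to 211793 normalized counts. With BRD9 the authors' deposited table gave 0.67 (SE 0.47, adjusted p 0.412), and the difference of 1.52 (95% interval 0.27 to 2.76) had an adjusted p of 0.311. Decorin, its closest relative by family, was not called. Dcn (chromosome 10, 97479500 to 97518163) stood at 0.01 (SE 0.50) and 0.94 (SE 0.66) per the authors' deposited tables, with implied means of 1771 and 1786 in the first. Lum, 47.3 kb away, was rare, with 7 and 1 reads in the controls, 12 and 12 with BAF250A, and 22 and 0 with BRD9, where the libraries lie on both sides of the controls.

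The large proteoglycans were not called. Vcan, versican (chromosome 13, 89655309 to 89743027), had implied means of 6856 and 14238 in the BAF250A table and stood at 1.05 (SE 0.51, adjusted Wald p 0.11) there and at 0.30 (SE 0.59, adjusted Wald p 0.816) with BRD9 per the authors' deposited tables. Acan, aggrecan, had 0 and 9 reads in the controls, 0 and 2 with BAF250A and 0 and 0 with BRD9, all of the control reads in 1 library. In this pair 0 genes were called in either comparison by the deposited Wald test, and 1 (Vcan) had an unadjusted p below 0.05 with BAF250A, as did 38.1% of all genes tested, and 0 with BRD9.

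**Figure D4:**
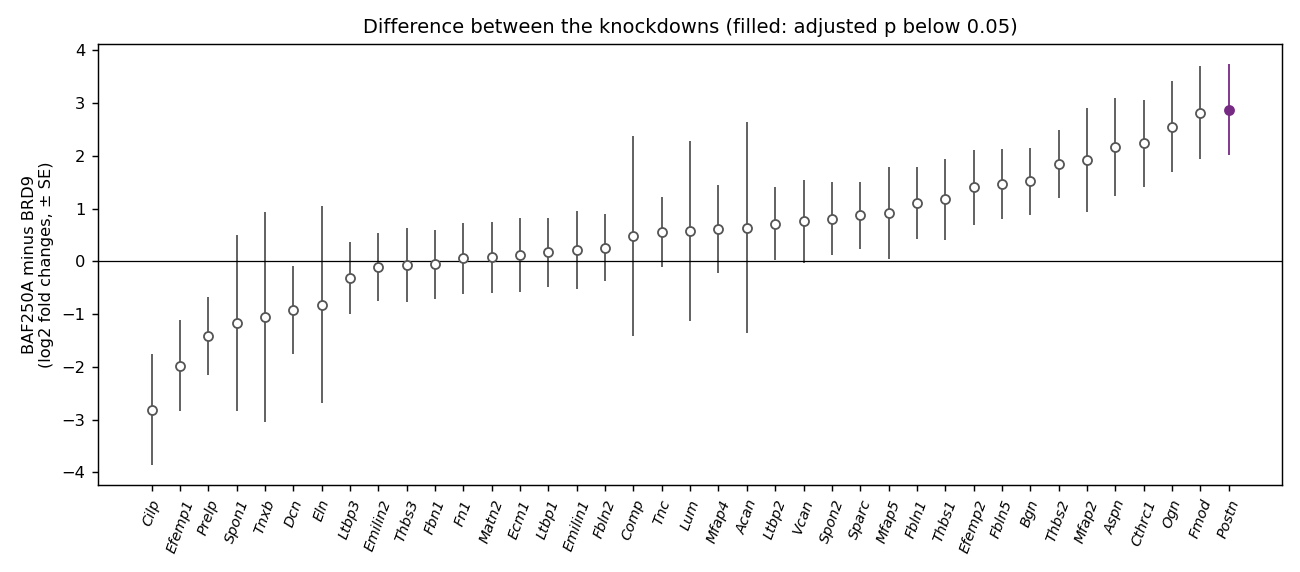
Difference of the deposited log2 fold changes, BAF250A minus BRD9 (y axis, with its SE as bars), for the 39 members tested in both tables, in rising order. Postn at 2.87 is the filled point past the threshold, Fmod at 2.82 and Ogn at 2.55 lie beside it, and Cilp at -2.81 is at the other end.

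The test of the difference was strict, because the shared control libraries cancel in a difference while their error was counted in each table. Spon1, Sparc, Thbs1, Fbln1, Mfap5, Efemp1 and Ltbp2 were called with BAF250A and not with BRD9, but none of them passed this test. Of the 39 members 1 was called, 11 had an unadjusted p below 0.05, where 8.35% of all genes tested did, and 28 had a positive difference, with a median of 0.57 against -0.0023 over all genes. With the variance set for shared controls under equal group variances, 10 members were called, 8 higher with BAF250A (Postn, Fmod, Ogn, Cthrc1, Aspn, Thbs2, Bgn and Fbln5) and 2 higher with BRD9 (Cilp and Efemp1). With that variance 7.55% of all 16311 genes were called, 2.59% higher with BAF250A and 4.95% higher with BRD9.

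Other genes of the pathway were read from lists that were also chosen with earlier results of these data known. Of all genes tested, 11.2% were called higher and 17.5% lower with BAF250A, and 5.11% higher and 9.33% lower with BRD9. Of 28 tested other matrix glycoproteins and proteoglycans, 15 rose and 3 fell with BAF250A, and 3 rose and 1 fell with BRD9 (medians 1.62 and 0.02). Among them Tnn, tenascin-W, stood at 6.14 (SE 0.59, adjusted Wald p 1.41e-23) and 0.36 (SE 1.15, adjusted Wald p 0.894) per the authors' deposited tables, with a called difference of 5.78 (adjusted p 0.000823). Its mean was only 6.86 normalized counts in the BRD9 table, so its control level was near the floor and the size of its changes is uncertain. In this list 3 genes were called higher with BAF250A than with BRD9 (Tnn, Omd and Ccn3) and 1 lower, Npnt, which encodes the integrin ligand nephronectin. Npnt fell by 2.51 (SE 0.44) with BAF250A and stood at 1.10 (SE 0.56) with BRD9 per the authors' deposited tables, a difference of -3.61 (adjusted p 6.63e-05), and it was named after its values were seen. Sparcl1, a relative of Sparc, rose by 5.13 (SE 0.79) and 5.50 (SE 0.77) per the authors' deposited tables. Of 20 tested matrix receptors 6 rose and 1 fell with BAF250A, and of 19 tested 2 rose and 1 fell with BRD9. Itga11, the collagen-binding integrin chain of fibroblasts, rose by 8.56 (SE 0.48) and 5.43 (SE 0.64) per the authors' deposited tables, with a called difference of 3.14 (adjusted p 0.00541). The proteoglycan receptor gene Sdc3 was called lower in both, at -1.91 (SE 0.44) and -1.38 (SE 0.49) per the authors' deposited tables.

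Of 11 tested partners of elastic fibre assembly, 3 rose and 2 fell with BAF250A, and of 12 tested 2 rose and 0 fell with BRD9. Over all genes tested, 28.7% were called with BAF250A and 14.4% with BRD9, and the lists were not tested against these shares. The microfibril-binding Thsd4 rose by 4.48 (SE 0.67) and 4.53 (SE 0.72), and the cross-linking enzyme gene Lox by 3.06 (SE 0.52) with BAF250A, per the authors' deposited tables, where Lox stood at 0.80 (SE 0.57) with BRD9. Of the genes of glycosaminoglycan synthesis, which make the chains that proteoglycans carry, 1 of 22 rose and 3 fell with BAF250A (median 0.02), and 1 of 23 rose and 0 fell with BRD9 (median -0.06). Has1, a hyaluronan synthase, was called in opposite directions, -2.81 (SE 0.90, adjusted Wald p 0.00874) and 2.10 (SE 0.74, adjusted Wald p 0.0347) per the authors' deposited tables, with a difference of -4.91 (adjusted p 0.00203). Of the TGF-beta ligand genes, Tgfb3 and Tgfb2 rose with BAF250A, by 1.78 (SE 0.43) and 1.43 (SE 0.51) per the authors' deposited table, and Tgfb1 stood at -0.22 (SE 0.47). With BRD9 the authors' deposited table put them at 0.96 (SE 0.48), 0.44 (SE 0.65) and -0.08 (SE 0.50), none called by the deposited Wald test. Of 13 proteases and inhibitors 3 rose and 2 fell with BAF250A, and 3 rose and 1 fell with BRD9. The largest change was that of the stromelysin gene Mmp3, which was called lower in both, at -5.90 (SE 0.93, adjusted Wald p 4.12e-09) and -2.30 (SE 0.73, adjusted Wald p 0.0144) per the authors' deposited tables. The versican-cleaving protease gene Adamts15 stood at -1.54 (SE 1.43) and 3.85 (SE 0.72) per the authors' deposited tables, called with BRD9 and in the difference of -5.39 (adjusted p 0.0338). The mean of Adamts15 was 3.88 normalized counts in the BAF250A table, near the floor, and 63.2 in the BRD9 table, so the size of these values is uncertain. The gelatinase gene Mmp2 rose (adjusted Wald p 1.08e-14 and 6.64e-11), and the inhibitor gene Timp3 rose by 3.90 (SE 0.49) and 1.66 (SE 0.56), per the authors' deposited tables.

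Markers of other cell states moved beside these changes. The shares called over all genes tested were 28.7% with BAF250A and 14.4% with BRD9. All 10 myotube markers fell with BAF250A, their summed implied means going from 512833 to 65634 normalized counts, and with BRD9 2 of 10 rose and 0 fell, from 534156 to 522214, or from 258173 to 296397 without Acta1. Of 11 tested fibroblast, tendon and fibro-adipogenic markers 4 rose (Tnmd, Mkx, Thy1 and Pdgfra) and 1 fell with BAF250A. With BRD9, of 9 tested 0 rose and 1 fell. Tnmd and Thy1 were not tested with BRD9, at means of 0.81 and 0.64 normalized counts, so these counts cover different genes. Thy1 was rare in the BAF250A table too, at a mean of 10.1. The summed implied means of these markers went from 49660 to 28138 and from 51438 to 23065. Ly6a, the gene that fell in each, set that direction, with implied means of 34555 and 5969 in the BAF250A table and 35687 and 5359 in the BRD9 table; without it the sums went from 15105 to 22169 and from 15751 to 17707. Tcf21 was at 0 in both tables. Of 10 undifferentiated myoblast markers 3 rose and 1 fell with BAF250A, and 4 rose and 1 fell with BRD9. The 10 macrophage, endothelial and epithelial markers summed to 371 and 75.7 with BAF250A and to 390 and 97.7 with BRD9. Only 5 of them were tested with BAF250A and 7 with BRD9, with 2 called lower in each (Kdr and Cd68) and none higher. Kdr alone had implied means of 178 and 0.92 in the BAF250A table and 187 and 4.68 in the BRD9 table. Without Kdr the sums went from 193 to 74.7 and from 203 to 93.0. All 12 interferon response genes fell in each comparison, their summed implied means going from 187274 to 3871 and from 193991 to 6150. The part of any of these in the matrix values was not tested.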

How the data were processed

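The data are RNA sequencing of 6 C2C12 libraries, 2 per group. Tools listed by the submitters' processing notes are DESeq2, RSEM, Bowtie, StringTie and HISAT, and the listed build is mm10; the sources used here do not say what each tool was used for. Per the file headers, the deposited tables give a mean normalized count, a signal averaged over the 4 libraries of a comparison after division by size factors, and a log2 fold change with its SE. Dividing the fold change by its SE gives the authors' deposited Wald score. The p-value and adjusted p-value are the authors', per the file headers, and a recalculation gave the latter as Benjamini-Hochberg over the genes that have one. No count model was fitted here.

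Computed here, with Python 3.11.15, numpy 2.4.6, pandas 2.3.3 and scipy 1.17.1: implied group means; the difference of the log2 fold changes over the root of the summed squared SE, tested two-sided against the normal distribution and Benjamini-Hochberg adjusted; and reads per library. Steps per library were read from genes with means below 6, of which 5586 of 5586 and 5457 of 5457 resolved into whole reads, with residuals up to 6.17e-10. The 2 libraries identical in 5442 of 5442 genes of both tables are the shared controls. All 2037 and 1794 genes with 3 or more control reads and 0 knockdown reads had negative fold changes, which gives the sign. Of 15 members with both means below 1000, 14 had 1 solution (Thbs3 had 2). Reads are whole numbers in the fits and cover counting error only; total depth per library was not analysed here. The deposited fold changes of rare genes were nearer 0 than the ratio of recovered means (Mfap2 with BAF250A 6.84 against 7.14), so low implied means are uncertain. Up to 9.76% of 31-base words were shared with another gene, except in Fbn1 (19.9%). All 40 members matched RefSeq by gene ID. Scripts were tested on simulated data.

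The members and lists were chosen with earlier results of these data known. Every member is accounted for, and those called in a comparison are given with fold change, SE and adjusted p in each. Their difference between the knockdowns is given for some of them. At most 4 called genes per list are named, apart from Omd, Ecm2 and Optc, which were added for their position, and Npnt, Ccn3 and Pdgfra. The count for the list of TGF-beta genes is not reported here. Alternatives were a stricter threshold, Bonferroni, adjustment over all genes, a minimum mean of 100, centring, and the variance of the difference.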

Additional observations from a re-analysis of the deposited data

Results flagged for a closer look

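Postn differed between the knockdowns: its log2 fold change was 2.87 higher with BAF250A than with BRD9 (adjusted p 0.0382 by the difference z test). Each knockdown was measured in 2 libraries, and the reads of Postn per library could not be recovered.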

How the results depend on the processing

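The 20 called members with BAF250A and 11 with BRD9 became 10 and 6 under Bonferroni adjustment, all of them higher. In the other alternatives the counts stayed between 17 and 20 for BAF250A and between 9 and 11 for BRD9. Spon1, Matn2 and Emilin2 with BAF250A and Aspn with BRD9 were not called at an adjusted p below 0.01, and Spon1 was not called when the adjustment ran over every gene with a p-value. The 1 member called in the difference z test, Postn, became 0 at an adjusted p below 0.01 and 0 under Bonferroni adjustment, with 11 members at an unadjusted p below 0.05 (8.35% of all genes tested), and 10 with the variance set to the mean of the squared SE, which called 7.55% of all genes tested. Centring at the median of genes with a mean of 100 or more moved values by 0.03 (BAF250A) and 0.05 (BRD9) and reversed Dcn with BAF250A, to -0.024. Of the called members, Spon1 and Efemp1 with BAF250A and Mfap2 and Aspn with BRD9 fell under that minimum mean. No paired analysis was possible because the libraries whose reads were recovered could not be matched to the replicate letters of the labels. Leaving out a replicate was not run, since reads were recovered for rare genes and the deposited fits are over all genes. Depth limits Fbn2, Acan, Tnxb, Eln, Comp, Lum and Spon1.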
